A study of Mus musculus with 8 samples.

Results

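The genes described here encode receptors of natural killer (NK) cells and were chosen by symbol. They are 10 of the 54749 genes to which the counted transcripts were assigned: Klra1, Klra3, Klra4, Klra7, Klra8 and Klra9 of the Ly49 family, Klrd1, Klrk1, Klrb1c and Ncr1. Counts of a gene are those of whichever of its transcripts had the largest total over all 8 libraries, a total that ignores genotype. The members were named with earlier results of these data known, so counts over them are descriptions. All 10 passed the filter on low counts, which left 21902 genes for testing. That filter asks for a minimum level in as many libraries as a genotype has. Klra1, Klra4, Klra8 and Klra9 reached it in every floxed library but not in every KO library. Their entry into the test thus depended on the floxed libraries, and calls and separations among them are descriptions for this reason too. The libraries were made from total RNA of sorted bone marrow LT-HSCs (long-term hematopoietic stem cells), 1 library for each mouse, 4 of them homozygous asrij floxed (replicates 1, 3, 4 and 5) and the other 4 asrij KO (replicates 2, 3, 4 and 5). Asrij is the mouse gene Ociad1, and the methods describe the KO mice as whole-body knockouts. The labels give all mice an age of 6 months, and the methods state that mice of both sexes were used, that C57BL/6J was the wild type strain, and that LT-HSCs were sorted for these libraries as LSK CD150+ CD48+ cells. For other assays the same methods give sorted LT-HSCs as LSK CD150+ CD48- cells, a difference they do not explain. The comparison asks which transcripts of this sorted fraction differ between asrij KO and asrij floxed mice.

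NK cells kill infected and transformed cells without prior sensitisation, and their response is set by the balance of activating and inhibitory receptors. In mice the Ly49 lectin-like receptors read MHC class I molecules. They lie side by side in the NK gene complex of chromosome 6 and differ in number and sequence between inbred strains. Inhibitory Ly49 receptors carry a signalling motif in their cytoplasmic tail, whereas activating ones signal through an adaptor protein, DAP12, encoded by Tyrobp. Klra4 encodes Ly49D and Klra8 encodes Ly49H, both activating, and Ly49H recognises a protein of mouse cytomegalovirus. Klra1 (Ly49A), Klra3 (Ly49C), Klra7 (Ly49G) and Klra9 (Ly49I) encode inhibitory receptors. Klrd1 encodes CD94, the partner chain of NKG2 receptors other than NKG2D. Klrk1 encodes NKG2D, which reads stress-induced ligands, and Klrb1c encodes NK1.1. Ncr1 encodes NKp46, an activating receptor of the immunoglobulin superfamily that marks NK cells in most mammals. These receptors are textbook markers of NK cells rather than of stem cells.

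The reference sequence at the start sites of the members is shown because the Ly49 genes with the largest differences between genotypes have closely similar start regions. The windows run from 250 bases before to 50 bases after the annotated start, on the strand of the gene, as given by RefSeq for GRCm38.p6. Capitals in the Ly49 windows mark runs of at least 12 bases that also occur in the window of Klra8, and for Klra8 itself those that occur in the window of Klra4. Klra8 lies at chr6:130129849-130130148, Klra4 at chr6:130067222-130067521 and Klra3 at chr6:130337577-130337876, each on the minus strand. In Ncr1, at chr7:4337465-4337764 on the plus strand, capitals mark matches to the RUNX motif TGTGGT or its reverse complement ACCACA.
Klra8: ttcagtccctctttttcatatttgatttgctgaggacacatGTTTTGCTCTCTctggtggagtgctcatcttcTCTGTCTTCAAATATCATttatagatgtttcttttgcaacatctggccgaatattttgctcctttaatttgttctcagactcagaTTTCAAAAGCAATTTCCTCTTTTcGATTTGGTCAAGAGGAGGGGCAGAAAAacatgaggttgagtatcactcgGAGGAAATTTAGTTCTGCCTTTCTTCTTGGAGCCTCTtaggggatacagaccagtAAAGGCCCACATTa
Klra4: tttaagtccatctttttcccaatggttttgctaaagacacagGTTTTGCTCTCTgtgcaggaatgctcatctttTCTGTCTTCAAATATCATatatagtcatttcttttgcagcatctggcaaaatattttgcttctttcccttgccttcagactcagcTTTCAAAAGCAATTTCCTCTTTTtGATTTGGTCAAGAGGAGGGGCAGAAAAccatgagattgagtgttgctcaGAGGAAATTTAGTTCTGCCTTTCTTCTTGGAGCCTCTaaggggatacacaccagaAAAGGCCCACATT
Klra3: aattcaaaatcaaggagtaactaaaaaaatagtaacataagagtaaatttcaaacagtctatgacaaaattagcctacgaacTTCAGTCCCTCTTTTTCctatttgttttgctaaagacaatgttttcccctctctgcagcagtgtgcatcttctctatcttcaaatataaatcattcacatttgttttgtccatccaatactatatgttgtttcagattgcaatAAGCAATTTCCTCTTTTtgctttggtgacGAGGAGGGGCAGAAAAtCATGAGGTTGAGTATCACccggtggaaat
Ncr1: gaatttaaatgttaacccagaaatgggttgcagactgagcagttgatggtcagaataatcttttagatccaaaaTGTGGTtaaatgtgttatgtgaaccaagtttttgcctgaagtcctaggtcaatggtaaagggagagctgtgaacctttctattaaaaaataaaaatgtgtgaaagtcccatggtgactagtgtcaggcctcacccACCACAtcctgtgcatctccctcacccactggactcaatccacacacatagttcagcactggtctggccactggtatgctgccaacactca
Klra4 matched Klra8 at 86.6% of 299 aligned bases, with 130 bases in capitals. Klra3 matched it at 85.6% of 216 aligned bases and Klra9 at 85.4% of 233, since the annotated starts of these genes lie at other positions of the similar stretch. For comparison, Ncr1, which is no relative of the Ly49 genes, gave 67.1% of 249 bases by the same alignment, and Klra1 and Klra7 gave 75.0% and 73.1%, with no shared run of 12 bases. In the spliced transcripts the order was another, and Klra8 was 91.4% identical to Klra3 and 91.3% to Klra9 but 81.2% to Klra4, which was 90.0% identical to Klra1.

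The RUNX motif TGTGGT, on either strand, was found in 4 of the 9 member windows with an entry, against 16.9% of 27025 windows of the same length. Ncr1 held 2 matches, and Klra1, Klrk1 and Klrb1c held 1 each. The T-box motif AGGTGTG was found in 0 of the 9 windows against 5.86% of all windows, and the ETS motif CCGGAA in 0 of the 9 against 15.2%. None of the 3 motifs is contained in another, both strands were searched for each, and a match describes the letters of the window, not a bound site. Klrd1 had no entry.

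The libraries held 23412829 to 44874882 gene counts. The targeted gene followed the labels in direction: Ociad1 had 31.3 to 66.9 CPM (counts scaled by TMM-normalized library size) in floxed and 11.7 to 19.7 CPM in KO libraries with log2 fold change -1.58 (SE 0.27, edgeR adjusted p = 0.0249). The KO mean was 33.5% of the floxed mean, so reads assigned to the gene remained in KO libraries. Their source was not tested. The sort markers differed in level, with floxed means (not corrected for length) of 56.0 CPM for Kit, 11.4 CPM for Ly6a, which encodes Sca-1, and 1.33 CPM for Slamf1, which encodes CD150. Of other stem cell genes, Mllt3, Hlf and Meis1 had 14.2, 9.18 and 7.35 CPM, and Fgd5 and Procr 0.423 and 0.344 CPM. Transcripts of mature cells were far more abundant, with 10368 CPM for S100a9 and 12776 CPM for Ngp, which encode granule and calcium-binding proteins of neutrophils. Libraries with numbers 1 to 3 and those with numbers 4 and 5 stood apart in the counts of both genotypes, a split that no label explains, and values of the members within each side are given below. Floxed replicate 3, the deepest library, also stood apart from the other floxed libraries for some genes. It had 3437 CPM of Ngp, against 13037, 18427 and 16203 CPM in floxed replicates 1, 4 and 5. For Kit it differed less, at 60.2 CPM against 51.6 to 58.3 CPM. It had a count for 34367 genes, against 28182 to 29707 in the other libraries.

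The 10 members together made up 25.4 to 39.2 CPM of floxed and 13.6 to 22.6 CPM of KO libraries, so the highest KO library lay below the lowest floxed library. In bulk samples, fewer cells that carry a transcript and less of it in each cell cannot be told apart. All 10 had a negative log2 fold change (KO against floxed), as did 50.4% of all genes tested. Their median was -0.92, against -0.01 for all genes tested, and they ranged from -2.96 to -0.31. Klra8, Klra4 and Ncr1 passed both thresholds of the study (adjusted p under 0.05 and absolute log2 fold change above 1.5), 3 of 10 where 0.74% of all genes tested did so in this direction. The same 3 are the members with an adjusted p under 0.05, a limit that 1.75% of genes passed in this direction. For 4 members every KO library lay below every floxed library, a separation found in this direction for 7.66% of all genes tested. At an unadjusted p under 0.05, 6 members were lower, against 12.1% of genes.

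**Figure D1:**
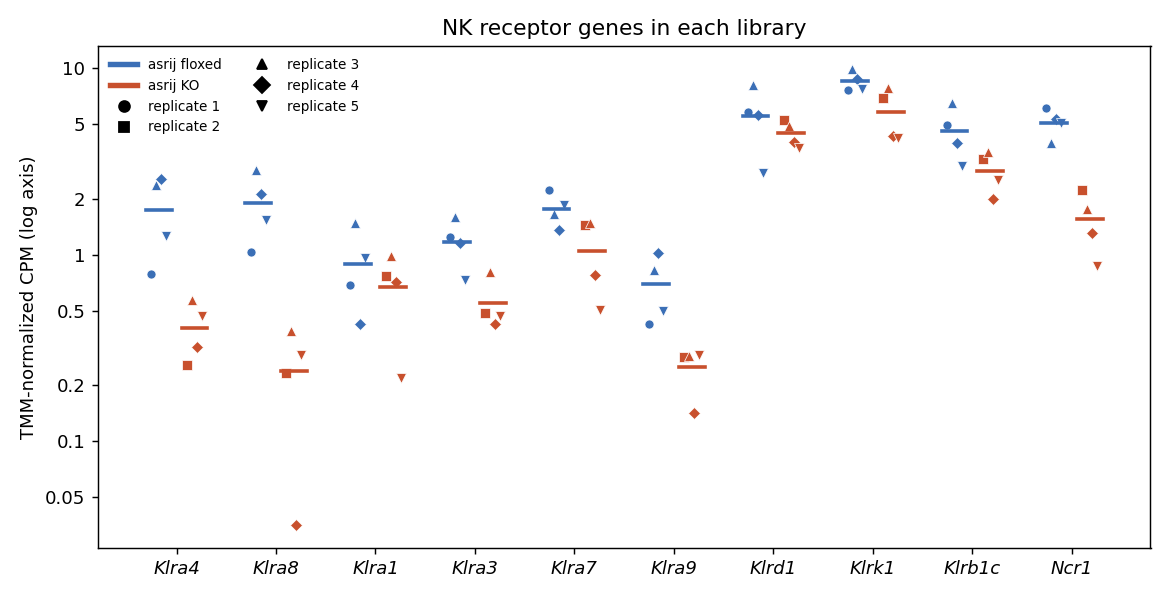
TMM-normalized CPM (log axis) of the 10 NK receptor genes in each of the 4 asrij floxed (blue) and 4 asrij KO (red) libraries, with marker shapes for the replicate number and horizontal bars for group means. The groups do not overlap for Klra4, Klra8, Klra9 and Ncr1, and Klra8 reaches 0.0355 CPM, a single read, in KO replicate 4.

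Among the activating Ly49 genes, Klra8 showed the largest difference of the members. Its span in GRCm38 is chr6:130115226-130129898, minus strand. Klra8 reached 1.03, 2.86, 2.13 and 1.53 CPM in floxed libraries 1, 3, 4 and 5 (39, 151, 50 and 40 counts), compared with 0.231, 0.390, 0.0355 and 0.290 CPM in KO libraries 2, 3, 4 and 5 (9, 15, 1 and 8 counts). No KO library reached the lowest floxed library. The mean fell from 1.89 ± 0.787 CPM (SD, n = 4) to 0.237 ± 0.149 CPM (SD, n = 4) with log2 fold change -2.96 (SE 0.59, edgeR adjusted p = 0.0338). The KO mean was 12.5% of the floxed mean. The KO values rest on 1 to 15 counts a library. Of the 50-base stretches of the Klra8 transcript, 33.1% also occur in transcripts of other genes, 20.4% in the pseudogene Klra14-ps, so some of these reads could belong to relatives.

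Klra4, the other activating member, lies from 130043731 to 130067271 on the same strand. It reached 0.791, 2.36, 2.55 and 1.26 CPM in floxed libraries 1, 3, 4 and 5, compared with 0.256, 0.572, 0.319 and 0.471 CPM in KO libraries 2, 3, 4 and 5. The groups did not overlap, although floxed replicate 1 stood nearer to the KO libraries than to floxed replicates 3 and 4. The means were 1.74 ± 0.851 CPM (SD, n = 4) and 0.405 ± 0.143 CPM (SD, n = 4) with log2 fold change -2.10 (SE 0.48, edgeR adjusted p = 0.0494). This value stood close to the limit of 0.05, and it became 0.0802 with limma-voom, 0.0613 with the sum over transcripts and 0.0538 without immunoglobulin genes. Of its 50-base stretches, 4.68% were shared with other genes.

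The 4 inhibitory Ly49 genes were lower in KO means too, by less, and none of them passed the test at an adjusted p of 0.05 with edgeR, DESeq2 or limma-voom. At an unadjusted p under 0.05 with edgeR, Klra3 and Klra9 were lower. Klra9 (Ly49I) came nearest. It reached 0.422, 0.832, 1.02 and 0.498 CPM in floxed libraries 1, 3, 4 and 5, compared with 0.282, 0.286, 0.142 and 0.290 CPM in KO libraries 2, 3, 4 and 5, with no overlap. Its log2 fold change was -1.45 (standard error 0.46, adjusted p = 0.107).

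Klra3 (Ly49C), the closest relative of Klra9 among the members with 96.0% identical transcript bases, had 1.24, 1.59, 1.15 and 0.728 CPM in floxed replicates 1, 3, 4 and 5. In KO replicates 2, 3, 4 and 5 it had 0.487, 0.806, 0.426 and 0.471 CPM. Only KO replicate 3 reached into the floxed range, past floxed replicate 5, and its log2 fold change was -1.10 (SE 0.38, edgeR adjusted p = 0.136). Of the 50-base stretches, 18.8% of those of Klra3 and 30.0% of those of Klra9 occur in other genes, most often in Klra10, so reads of these relatives are partly interchangeable.

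Klra7 (Ly49G) had the most counts of the Ly49 members, 400 in all. It reached 2.21, 1.65, 1.36 and 1.84 CPM in floxed libraries 1, 3, 4 and 5, compared with 1.44, 1.48, 0.781 and 0.507 CPM in KO libraries 2, 3, 4 and 5. The groups overlapped, with KO replicates 2 and 3 above floxed replicate 4, and its log2 fold change was -0.74 (SE 0.39, edgeR adjusted p = 0.309). Klra1 (Ly49A) reached 0.686, 1.48, 0.425 and 0.958 CPM in floxed libraries 1, 3, 4 and 5, compared with 0.769, 0.988, 0.710 and 0.217 CPM in KO libraries 2, 3, 4 and 5. Its groups overlapped widely, and its log2 fold change of -0.40 was smaller than its standard error of 0.53 (adjusted p = 0.708).

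Because the activating genes had the larger differences, their sum was set beside that of the inhibitory genes as a description, with no test. Klra4 and Klra8 made up 28.5%, 48.5%, 54.2% and 41.0% of the counts of the 6 Ly49 members in floxed replicates 1, 3, 4 and 5. In KO replicates 2, 3, 4 and 5 they made up 14.1%, 21.3%, 14.7% and 33.9%. The shares of the groups overlapped, since KO replicate 5 stood above floxed replicate 1. The KO shares rest on 10 to 37 activating counts a library and 41 to 137 inhibitory counts. In CPM the activating sum was 1.82 to 5.22 in floxed and 0.355 to 0.962 in KO libraries. That it did not overlap adds nothing, because Klra4 and Klra8 each had no overlap and were summed because of their differences. The inhibitory sum was 3.95 to 5.54 in floxed and 1.49 to 3.56 in KO libraries, without overlap.

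**Figure D2:**
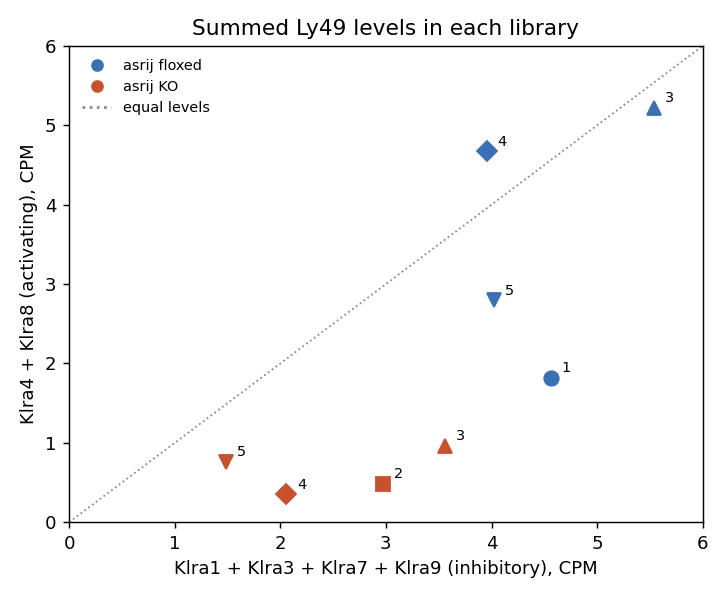
Summed CPM of the activating Ly49 genes Klra4 and Klra8 (vertical axis) against that of the inhibitory genes Klra1, Klra3, Klra7 and Klra9 (horizontal axis), with 1 point for each asrij floxed (blue) and asrij KO (red) library, numbered by replicate, and a dotted line of equal levels. The KO libraries lie at 0.355 to 0.962 CPM on the vertical axis, below the floxed libraries at 1.82 to 5.22 CPM, as they do for Klra4 and Klra8 singly. Only floxed replicate 4 lies above the line.

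Ncr1 had the smallest adjusted p of the members and is the only one outside chromosome 6, on the plus strand of chromosome 7 from 4337724 to 4345164. It reached 6.09, 3.95, 5.36 and 5.06 CPM in floxed libraries 1, 3, 4 and 5, compared with 2.23, 1.77, 1.31 and 0.870 CPM in KO libraries 2, 3, 4 and 5. All 4 KO libraries lay well below the lowest floxed library. Its log2 fold change was -1.72 (SE 0.32, edgeR adjusted p = 0.0291), and the KO mean was 30.2% of the floxed mean. No 50-base stretch of its spliced transcript was found in another gene, and no other gene with a count overlaps it. By spliced sequence its reads are the least ambiguous of the 3 genes called. Introns, which the counts also cover, were not compared.

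The lectin-like receptors outside the Ly49 family had smaller differences, and none passed an adjusted p of 0.05 with edgeR, DESeq2 or limma-voom. Of the 3, only Klrb1c was lower at an unadjusted p under 0.05 with edgeR. Klrd1 (CD94) reached 5.85, 8.09, 5.61 and 2.76 CPM in floxed libraries 1, 3, 4 and 5, compared with 5.30, 4.91, 4.04 and 3.73 CPM in KO libraries 2, 3, 4 and 5. The KO values lay inside the floxed range, and its log2 fold change was -0.31 (SE 0.31, edgeR adjusted p = 0.608). Klrk1 (NKG2D) reached 7.65, 9.95, 8.72 and 7.74 CPM in floxed libraries 1, 3, 4 and 5, compared with 6.92, 7.88, 4.33 and 4.24 CPM in KO libraries 2, 3, 4 and 5. KO replicate 3 alone stood above the lowest floxed libraries, and its log2 fold change was -0.54 (SE 0.25, edgeR adjusted p = 0.239).

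Klrb1c (NK1.1, the antigen by which NK cells of C57BL/6 mice are commonly stained) had 188, 343, 94 and 78 counts in floxed replicates 1, 3, 4 and 5 and 127, 137, 56 and 69 counts in KO replicates 2, 3, 4 and 5. After normalization these were 2.99 to 6.49 CPM in floxed and 1.99 to 3.56 CPM in KO libraries. KO replicates 2 and 3 lay above floxed replicate 5, and its log2 fold change was -0.71 (SE 0.30, edgeR adjusted p = 0.208). Its span is shared over 82.3% with Gm44511 on the same strand, so reads of these genes cannot be told apart there.

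The 10 genes were also ordered by level, as mean CPM per kilobase of spliced transcript. In floxed mice the order was Klrd1 at 6.23, Ncr1 at 3.50, Klrk1 at 2.66, Klrb1c at 1.76, Klra7 at 1.64, Klra8 at 1.60, Klra4 at 1.40, Klra3 at 1.20, Klra9 at 0.617 and Klra1 at 0.531 CPM per kilobase. The ranges over libraries overlapped for all 9 pairs of neighbours in that order, so none of these steps exceeded the spread. In KO mice Klrd1 led at 5.03, followed by Klrk1 at 1.83, Klrb1c at 1.08, Ncr1 at 1.06 and Klra7 at 0.978 CPM per kilobase, and Klra8 was last at 0.201. Of the 9 KO neighbours, 8 had overlapping ranges, the exception being Klrd1 over Klrk1. By this measure Klra8 went from rank 6 to rank 10 and Ncr1 from rank 2 to rank 4. Levels per kilobase assume that reads come from the spliced transcript, whereas the deposited counts also cover introns.

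Within the libraries numbered 1 to 3 all 10 members had a lower mean log2(CPM + 0.5) in KO than in floxed mice, against 48.9% of all genes tested, with a median difference of -0.58. Within numbers 4 and 5 all 10 did so too, against 49.1%, with a median of -0.83. For Klra8 the difference was -1.49 within numbers 1 to 3 and -1.83 within 4 and 5, for Klra4 -1.09 and -1.38, and for Ncr1 -1.12 and -1.86. The members also differed between the sides of the split, with a median difference of -0.37 for numbers 4 and 5 against 1 to 3. For all genes tested this median was -0.045. KO replicates 4 and 5 held the lowest value of all 8 libraries for 4 members each, and floxed replicate 3 held the highest floxed value for 6. With a block for this split, Klra8 (adjusted p = 0.00838), Klra4 (0.0166) and Ncr1 (0.00544) passed both thresholds, 3 of 10 where 1.47% of all genes were called lower. Klra3 and Klrb1c then had adjusted p-values of 0.0459 and 0.0368, so that 5 members were under 0.05 in a fit where 9.65% of all genes were lower at that limit.

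The calls of the 3 genes did not hold in every fit. With the replicate number as a block, which keeps 6 libraries, 0 of 10 members passed an adjusted p of 0.05 in edgeR. The lowest adjusted p was 0.122, and 0.0833% of all genes were called lower. At the looser limit of an unadjusted p under 0.05, 6 members were lower. The share of all genes at that limit was not counted in this fit and was 12.1% in the main one. With 1 library left out, 0 members passed both thresholds in 7 of the 8 cases. These cases were floxed replicates 1, 4 and 5 and each KO replicate, with a lowest adjusted p of 0.0574 to 0.0905. In them 4 to 7 members had an unadjusted p under 0.05, again without a counted share of all genes. The share of all genes called lower was then 0.0853%, 0.452% and 0.177% without floxed replicates 1, 4 and 5 and 0.107%, 0.152%, 0.0969% and 0.0968% without KO replicates 2, 3, 4 and 5. Without floxed replicate 3, all 3 genes passed, with 1.41% of all genes called lower. DESeq2 also called 3 members (1.42% of all genes lower), limma-voom 2 (0.333%), the sum over transcripts 2 (0.613%), a fit without immunoglobulin genes 2 (0.414%) and a filter of at least 50 counts in 4 libraries 1 of the 5 members it left (0.679%). The log2 fold changes moved little by comparison, at -3.31 to -2.60 for Klra8, -2.32 to -1.86 for Klra4 and -1.93 to -1.51 for Ncr1 over all alternatives.

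Over the 45 pairs of members, Pearson's r of log2(CPM + 0.5) across the 8 libraries had a median of 0.70, from 0.16 to 0.96, and was positive for every pair. After removal of the genotype means the median was 0.42, from -0.41 to 0.90, with 38 pairs positive. These values describe 8 libraries that share their depth and the split in number. The genes most like Klra7, the Ly49 member with the highest count, were Ccdc163 (r = 0.99), Plscr1 (0.96), Med17 (0.96), Casp1 (0.96) and Rmnd1 (0.96). Those most like Klrk1, the member with the highest count outside the Ly49 family, were Zfp947 (r = 0.98), Zfp959 (0.98), Gm28930 (0.97), Oosp1 (0.97) and BC035044 (0.96). Of these 10, only BC035044 lies in the NK complex interval described next.

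The 9 members on chromosome 6 bound an interval of the NK complex at chr6:128778485-130386874, 1.61 Mb with 82 annotated genes, of which 46 were tested. The other 12 Klr genes in it had 11 negative log2 fold changes, a median of -1.29 and 1 gene called. The 25 tested genes of other names, among them C-type lectins of the Clec family, had 18 negative values and a median of -0.30. In the interval 3 of the 46 tested genes were called, all lower: Klra4, Klra8 and Klri2. Of all genes tested in the series, 50.4% had negative values and 0.74% were called lower.

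**Figure D3:**
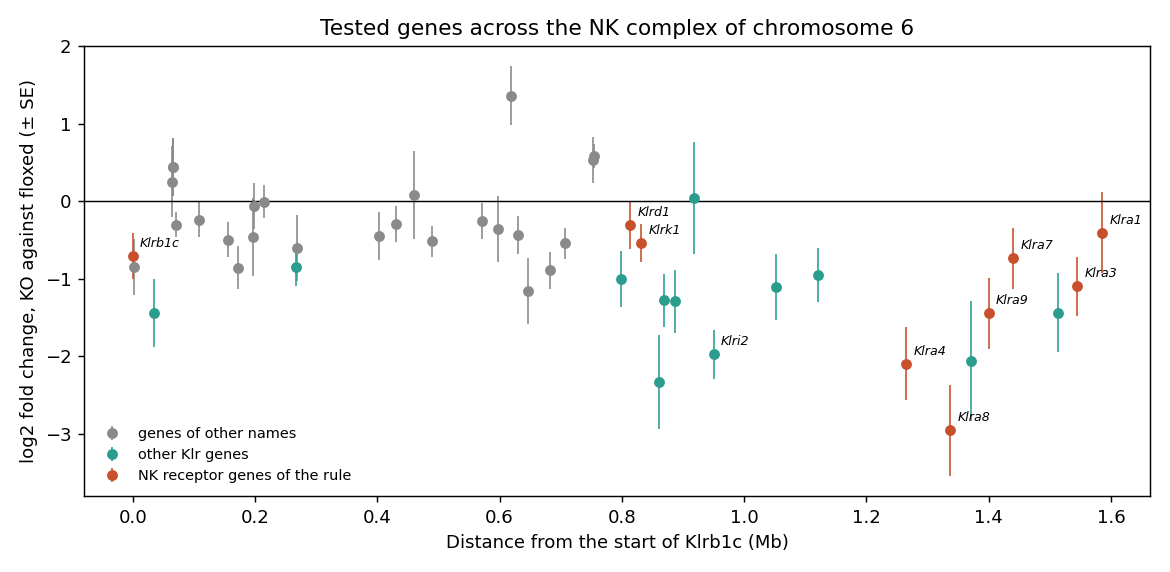
Log2 fold change (asrij KO against asrij floxed, with the standard error as bars) of the 46 tested genes of the NK complex on chromosome 6, against the distance in megabases from the start of Klrb1c. Members (red) and other Klr genes (green) lie mostly below 0, with Klra8 at -2.96 and Klri2 at -1.98, and genes of other names (grey) have a median of -0.30.

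Of the Ly49 genes outside the rule, 5 were tested and all had negative log2 fold changes (median -1.12). Klra2, which encodes the inhibitory receptor Ly49B known from myeloid cells, fell from 42.1 ± 8.94 CPM (SD, n = 4) to 19.4 ± 4.17 CPM (SD, n = 4), log2 fold change -1.12 (SE 0.21, edgeR adjusted p = 0.0316). It had 31.6 to 52.5 CPM in floxed and 15.1 to 23.9 CPM in KO libraries, with no overlap. Klra2 was the only gene of the 5 past an adjusted p of 0.05 with edgeR, and DESeq2 put 2 under that limit, where 6.05% of all genes were lower with DESeq2 and 5.12% higher. Of the other killer cell lectin-like receptors, 10 were tested, with a median of -1.14, and 1 passed. Klri2, which encodes a receptor chain that pairs with Klre1, had 2.45 to 4.05 CPM in floxed and 0.616 to 1.09 CPM in KO libraries with log2 fold change -1.98 (SE 0.31, edgeR adjusted p = 0.0210). DESeq2 put 6 of the 10 under an adjusted p of 0.05, all lower (6.05% of all genes). Without floxed replicate 3, 2 of the 5 Ly49 genes and 3 of the 10 other receptors passed that limit as lower in edgeR, in a fit where 8.64% of all genes were lower and 8.9% higher at it.

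The NKG2 genes Klrc1, Klrc2 and Klrc3, named here after their values were seen because their products pair with CD94, are set beside Klrd1. Klrc1 had 4.31 ± 1.45 CPM (SD, n = 4) among floxed and 1.75 ± 0.858 CPM (SD, n = 4) among KO mice, with a log2 fold change of -1.29 (adjusted p = 0.107). Klrc2 had -1.28 (adjusted p = 0.0697) and Klrc3 -2.33 (adjusted p = 0.0666). None of the 3 passed the test, and the difference of their values from that of Klrd1 was not tested.

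**Figure D4:**
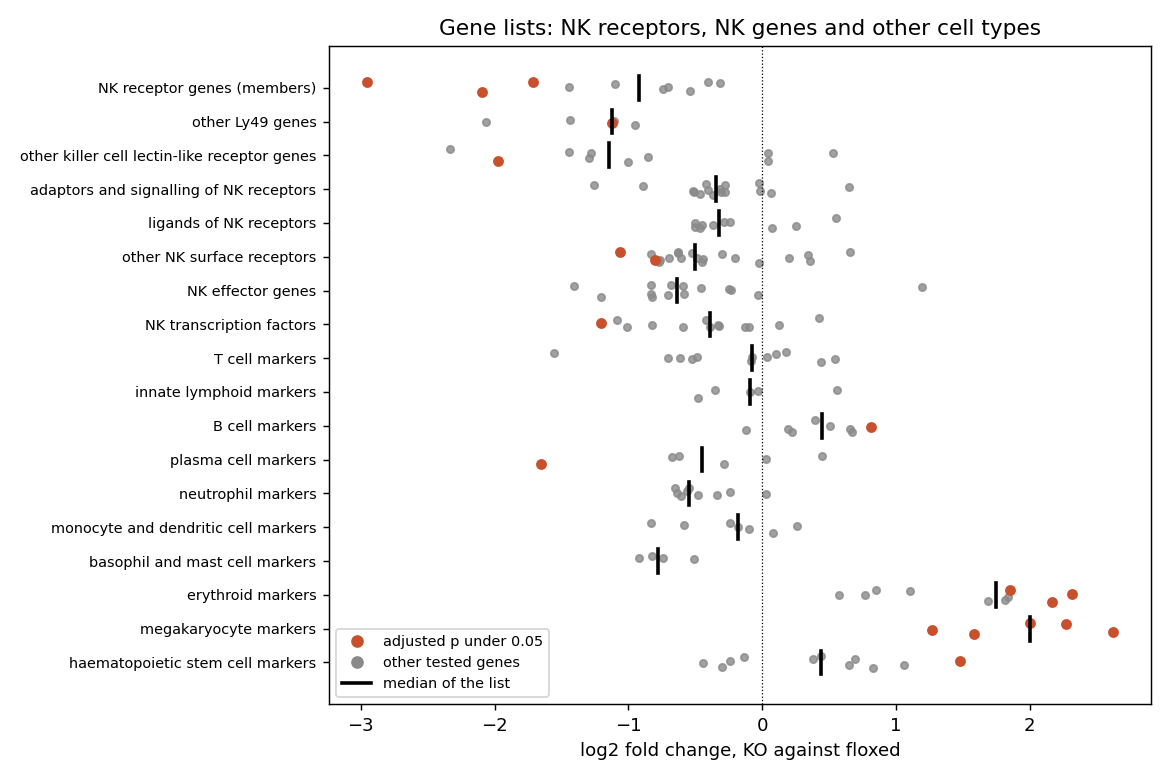
Log2 fold change (asrij KO against asrij floxed) of every tested gene of 18 gene lists, with genes of adjusted p under 0.05 in red, other genes in grey and the median of each list as a black bar. The members have a median of -0.92, T cell markers of -0.08 and erythroid markers of 1.75, and all 5 megakaryocyte markers lie above 1.

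The adaptors and kinases that carry the signals of these receptors lay closer to 0, with a median log2 fold change of -0.34 over 16 genes. Of these, 0 passed an adjusted p of 0.05 with edgeR, DESeq2 or limma-voom, and 2 were lower and 1 higher at an unadjusted p under 0.05 with edgeR. Without floxed replicate 3, 5 of the 16 passed as lower (8.64% of all genes). Tyrobp, the DAP12 adaptor of Ly49D and Ly49H, had 228 ± 80.9 CPM (SD, n = 4) among floxed and 188 ± 30.4 CPM (SD, n = 4) among KO mice (log2 fold change -0.28, adjusted p = 0.626), and the kinase Syk had a log2 fold change of -0.31 (adjusted p = 0.352). Both are used by many myeloid cells.

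The ligands of the receptors did not pass either. Of 10 tested, 0 had an adjusted p under 0.05 with edgeR, DESeq2 or limma-voom and 1 was lower at an unadjusted p under 0.05, with a median of -0.32. The MHC class I gene H2-D1 had a log2 fold change of 0.26 (adjusted p = 0.789) and B2m, which encodes the light chain of MHC class I, of -0.37 (adjusted p = 0.438).

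Other surface receptors of NK cells had a median of -0.50 over 20 genes, and 2 fell, both encoding chains of the interleukin 18 receptor. Il18r1 went from 26.3 ± 4.55 to 12.6 ± 0.938 CPM (SD, n = 4 each) with log2 fold change -1.07 (adjusted p = 0.0200), and Il18rap from 161 ± 31.5 to 92.3 ± 4.34 CPM (SD, n = 4 each) with log2 fold change -0.80 (adjusted p = 0.0373). Leaving out floxed replicate 3 put 8 of the 20 past the test as lower (8.64% of all genes). Of the NK transcription factors, 13 were tested with a median of -0.39, and Prdm1, which encodes BLIMP-1, fell by 1.20 on the log2 scale (adjusted p = 0.0383). Leaving out floxed replicate 3 put 5 of these past the test as lower (8.64% of all genes).

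Among 14 tested NK effector genes, 0 passed an adjusted p of 0.05 with edgeR or limma-voom, while DESeq2 put 2 lower and 1 higher (6.05% and 5.12% of all genes), and 7 were lower and 1 higher at an unadjusted p under 0.05 with edgeR. Their median was -0.64. Nkg7, a protein of cytotoxic granules, had 42.2 ± 14.7 CPM among floxed and 28.0 ± 1.43 CPM among KO mice (SD, n = 4 each, log2 fold change -0.59, adjusted p = 0.208). Tnfsf10, which encodes the death ligand TRAIL, had a log2 fold change of -0.71 (adjusted p = 0.0791) with no overlap between groups. Without floxed replicate 3, 5 were lower and 1 higher at an adjusted p under 0.05 (8.64% and 8.9% of all genes).

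Markers of other cells were set beside these values. T cells can carry several of the receptors, and 12 T cell markers had a median of -0.08, with 0 past an adjusted p of 0.05 with edgeR, DESeq2 or limma-voom and 2 lower and 1 higher at an unadjusted p under 0.05. Summed T cell markers reached 51.0 to 67.0 CPM in floxed and 53.1 to 57.2 CPM in KO libraries, with Cd4 and Lck at log2 fold changes of 0.44 (adjusted p = 0.164) and 0.10 (adjusted p = 0.831). Of the 12, 7 had negative values, among them the CD3 chain genes Cd3d, Cd3e and Cd3g at -1.55, -0.62 and -0.52 and Cd28 at -0.71 with no overlap between groups, 4 genes named after their values were seen. The Cd3d value rests largely on floxed replicate 3 at 19.7 CPM, against 2.99 to 3.74 CPM in the other floxed libraries. Its KO libraries had 2.33 to 3.07 CPM. For Cd3e floxed replicate 3 was instead the lowest floxed library, at 2.48 CPM. Within numbers 1 to 3 the KO mean was lower for 5 of the 12 and within 4 and 5 for 8. Of 5 innate lymphoid markers, 0 passed at an adjusted or unadjusted p of 0.05 with edgeR, nor at an adjusted p with DESeq2 or limma-voom (median -0.09). Of 8 B cell markers 1 was higher, Cd79a, at a log2 fold change of 0.81 (adjusted p = 0.0408), and of 6 plasma cell markers 1 was lower, Jchain, at -1.66 (adjusted p = 0.0239).

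Markers of erythroid and megakaryocytic cells moved in the other direction from the receptors. Of 10 erythroid markers 3 rose, against 1.22% of all genes higher at an adjusted p under 0.05, Hbb-bt, Hba-a1 and Klf1 with log2 fold changes of 2.16 (adjusted p = 0.0321), 2.32 (adjusted p = 0.0396) and 1.85 (adjusted p = 0.0464), and their list summed to 27580 to 69495 CPM in floxed and 121510 to 294290 CPM in KO libraries. All 5 megakaryocyte markers rose, among them Pf4 by 2.27 (adjusted p = 0.00534) on the log2 scale, and summed to 30.0 to 65.7 and 154 to 172 CPM. Left out before normalization, the haemoglobin genes left the values of the genes called nearly the same: Klra8 was at -2.96, Klra4 at -2.10 and Ncr1 at -1.73, and all 3 passed both thresholds (0.781% of all genes called lower). The part of the other markers in the members' differences was not tested.

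The stem cell markers had a median log2 fold change of 0.44, with sums of 100 to 119 CPM in floxed and 108 to 130 CPM in KO libraries. The 9 neutrophil markers had a median of -0.55 with 0 past an adjusted or unadjusted p of 0.05 with edgeR, nor at an adjusted p with DESeq2 or limma-voom. Monocyte and dendritic cell markers (7 tested, median -0.18) and basophil and mast cell markers (4 tested, median -0.78) had 0 past an adjusted p of 0.05 with edgeR or limma-voom and 1 lower in each list at an unadjusted p under 0.05. DESeq2 put 0 of the former and 1 of the latter under an adjusted p of 0.05. The sides of the split in library number differed for these lists: within numbers 1 to 3 the KO mean was lower for 3 of 9 neutrophil, 3 of 7 monocyte and dendritic cell and 1 of 4 basophil and mast cell markers, and within 4 and 5 for 9, 6 and 4 of them. Without floxed replicate 3, 4 neutrophil markers and 3 of the basophil and mast cell markers passed as lower (8.64% of all genes), and 6 B cell and 10 erythroid markers as higher (8.9% of all genes). In that fit the median was -0.76 for neutrophil and -1.04 for basophil and mast cell markers, near or beyond the -0.83 of the members. For monocyte and dendritic cell markers it was -0.32. With the replicate block, 1 megakaryocyte marker passed an adjusted p of 0.05 and no other gene of any of the lists did with edgeR.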

How the data were processed

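Read counts of 138930 Ensembl transcripts were used as deposited for 8 LT-HSC libraries. The authors used FastQC, Trim Galore and Bowtie 2 with GRCm38/mm10 transcripts and deposited whole-number counts without normalization. The counting tool, versions, strand setting and batches are not given in the sources used here. All 8 files hold counts, 7 of them with tabs in place of commas.

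GENCODE M21 (GRCm38) held 138789 of the identifiers and gave their genes. The transcript with the largest total stood for its gene. In 4405 pairs of a transcript inside the span of another (2891 on opposite strands, inner transcripts with at least 800 counts), the outer one had at least as many counts in every library, so counts cover introns and both strands, and reads of overlapping genes are counted on both. Library totals were 56661356 to 120858975 transcript counts.

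Gene counts were filtered by filterByExpr, normalized by TMM and tested with the quasi-likelihood test of edgeR 4.0.16 (R 4.3.3), KO against floxed, with Benjamini-Hochberg adjustment over 21902 genes and no covariate. Calls followed the thresholds in the study's methods: adjusted p under 0.05, absolute log2 fold change over 1.5. P-values measure the spread between mice as sequenced, with 1 library for each. DESeq2 1.42.0, limma-voom (limma 3.58.1), other scalings and filters, the sum over transcripts, leaving out gene classes or single libraries and blocks for replicate number or for the split in number were alternatives. The edgeR, limma-voom and DESeq2 fits of all 8 libraries without a block were first tested on simulated data in which 200 genes changed. The other alternatives were not tested in this way. Python 3.11.15, pandas 2.3.3 and Biopython 1.88 were used for the other steps, among them global alignments and the share of 50-base stretches found in transcripts of other genes. Start regions came from RefSeq (GRCm38.p6), where 9 of the 10 members had an entry.

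The members, gene lists and tests were chosen with earlier results of these data known, so counts over them are descriptions. Named genes are the members, Ociad1, the genes of each list past an adjusted p of 0.05 (at most 4) or otherwise the 2 with the highest count, genes that overlap a member, and the 5 genes most correlated with each of 2 members. A result of 1 list gene is not reported here. Exceptions are marked where they occur, and Kit, Ly6a, Slamf1, Mllt3, Hlf, Meis1, Fgd5, Procr and Klre1 are named to describe the sorted cells or a partner chain.

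Replicate numbers 3, 4 and 5 in the labels occur in both genotypes, in different mice. Deviations of same-numbered libraries from their group means correlated at 0.41 to 0.68 (mean 0.51). Libraries of other numbers on the same side of the split correlated as much (mean 0.51), so a pairing by number could not be told apart from the split. Those across the split had a mean of -0.51, which mirrors the other values because deviations cancel out within a genotype. The replicate block was run as an alternative to the main fit, which has no covariate.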

Additional observations from a re-analysis of the deposited data

Results flagged for a closer look

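Of 22 groups of 4 libraries examined, 1 had a library far from the others by Dixon's ratio, and chance alone gives about 1.1. Klra9 in KO replicate 4 had a log2(CPM + 0.5) of -0.64, below the other 3 KO libraries at -0.35 to -0.34, a gap of 0.95 of the group's range. It rests on 4 counts, against 8 to 11 in the other KO libraries.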

How the results depend on the processing

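All members tested kept a negative log2 fold change under every alternative, and no direction reversed. Some values came close to no difference: without floxed replicate 3, Klra1 was at -0.02 and Klrd1 at -0.06. The alternatives also share most of their libraries. Members past both thresholds numbered 3 in the main comparison, 2 with limma-voom, the sum over transcripts or without immunoglobulin genes, 1 with at least 50 counts in 4 libraries, which leaves 5 members, and 0 with the replicate block. With single libraries left out they numbered 0 to 3. With the block for the replicate number, which pairs 6 libraries, 44 of all genes passed both thresholds, against 261 in the main comparison. At an adjusted p under 0.05 alone, 0 genes of the other NK lists and 48 of all genes passed, against 5 and 651. All-gene counts past both thresholds were 503 with DESeq2, 521 with a block for the split and 51 to 857 without single libraries. In the main comparison 624 genes passed on unadjusted p with the fold limit. The number past an adjusted p of 0.05 in the other NK lists was 17 with DESeq2 and 27 with the split block (2447 and 4059 of all genes at that limit). It was 3 without a filter (750 of all genes) and 0 to 29 without single libraries (61 to 3875 of all genes). The highest all-gene count came without floxed replicate 3. The log2 fold change of Ociad1 was -1.75 to -1.29 without single libraries and missed a threshold in 5 of 8 such cases. By genomic span instead of spliced length, 8 of 10 members kept their rank in level. The causes were not tested. Members had 131 to 2035 counts over all 8 libraries, and counting error was not separated from the spread between mice.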
